A study of Mus musculus with 6 samples.

Results

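Ribosome biogenesis factors are the nucleolar proteins that transcribe ribosomal RNA, modify and cut it, and assemble it with ribosomal proteins into small and large ribosomal subunits. They were chosen by gene symbol: names starting with Nop, Utp, Rrp or Nol and a number, names starting with Polr1, and Imp3, Imp4, Gar1, Nhp2, Fbl, Dkc1, Ncl, Npm1, Wdr12, Bop1, Pes1 and Nob1. The rule found 49 of the 11489 genes in the deposited table. RNA was sequenced from mouse bone marrow cells sorted for the macrophage surface protein F4/80 and for eGFP reporting Epor, the erythropoietin receptor gene. The labels name erythroblastic island macrophages for both groups, with 3 libraries of F4/80+Epor-eGFP+ cells (here Epor-eGFP+) and 3 of F4/80+Epor-eGFP- cells (here Epor-eGFP-). No treatment, age, strain or construct of the reporter is given in the sources used here, and no label ties a library to an animal. The spread that p-values measure may thus be technical. Values of single libraries are given in the order of their column numbers, 0, 1 and 2.

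RNA polymerase I transcribes the long ribosomal RNA precursor in the nucleolus. Small nucleolar ribonucleoproteins (snoRNPs) of the box C/D class methylate the precursor and those of the box H/ACA class convert uridines to pseudouridine. The small subunit processome folds and cuts the part that becomes 18S ribosomal RNA, while other factors, among them the PeBoW complex of Pes1, Bop1 and Wdr12, mature the part that becomes 28S and 5.8S. Cells that grow and divide make many ribosomes, and the transcription factor Myc is known to activate many genes of this pathway. In bone marrow, early erythroid and granulocytic precursors are known for large nucleoli that shrink as the cells mature.

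In Epor-eGFP+ cells most of the 49 factors were higher. All 49 passed the filter on low values (a mean of at least 1 FPKM, fragments for each kilobase of a gene, relative to library size), 35 rose and none fell (limma on log2(FPKM + 1), Benjamini-Hochberg adjusted p under 0.05 over all 10964 genes tested). Of all genes tested, 49.0% were called in either direction, 22.7% higher and 26.3% lower, against 71.4% of the members called higher. The median log2 fold change was 0.40 over the members and −0.01 over all genes tested. At an unadjusted p under 0.05, 37 members were higher and 2 lower. With the library number of the columns as a replicate block, 37 rose and 2, Utp3 and Utp23, fell, in a fit that called 28.0% of all genes higher and 30.4% lower. The increases were moderate: the largest log2 fold change was 1.26, and the most negative was −0.26. Without both libraries numbered 0, 7 members rose, and 4.49% of all genes tested were called higher. Without both numbered 1 the count was 29 (19.4% of all genes higher), and without both numbered 2 it was 34 (20.4%). The cause of the lower count without libraries 0 was not tested. The 7 members called without libraries 0 were Gar1, Nop10, Nop14, Nop16, Nop2, Rrp15 and Wdr12, and they were called higher in all 19 other settings of the fit, which varied the scaling, filter, pseudocount, variance model and libraries.

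**Figure D1:**
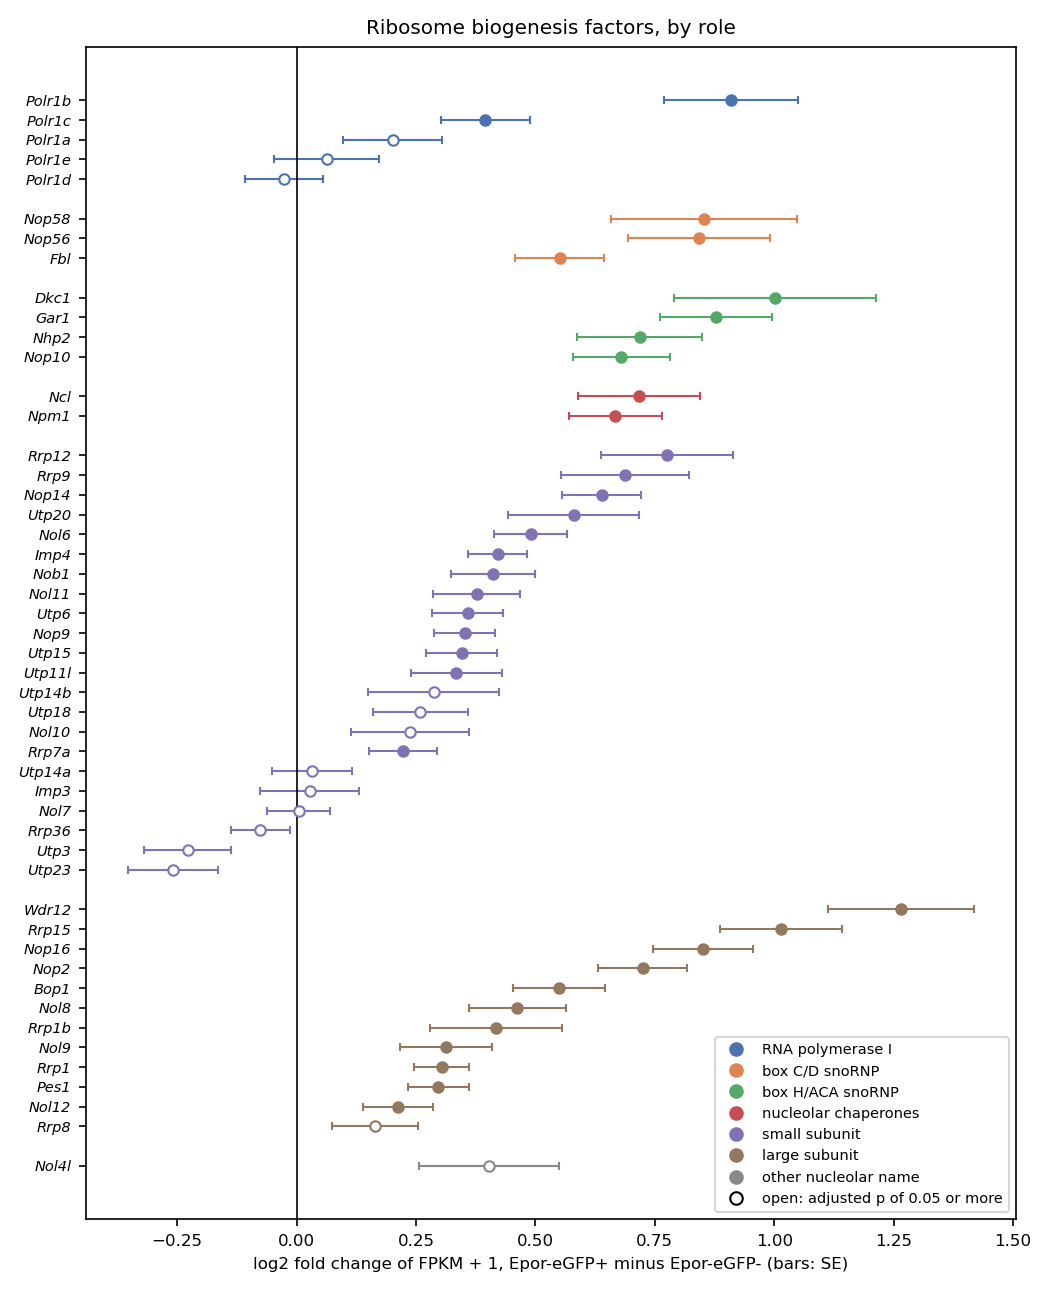
Log2 fold change of FPKM + 1 (x axis, Epor-eGFP+ minus Epor-eGFP-, bars are SE from limma) for each of the 49 members (y axis), grouped and coloured by role. Filled points are the 35 members called higher and open points the 14 without a call. Wdr12 stands farthest right at 1.26, and Utp23 farthest left at −0.26.

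The table lists some genes under older names, and the rule reads names as listed. Applied to the RefSeq symbols used here, it adds Cirh1a (now Utp4), Diexf (now Utp25) and Gltscr2 (now Nop53). With this choice, made after the values were seen, 37 of 52 rose and 1 fell. Cirh1a rose from 10.0 ± 1.35 to 18.5 ± 2.56 FPKM (SD, n = 3 per group, log2 fold change 0.82, limma adjusted p = 0.00268) and Diexf from 2.68 ± 0.131 to 3.53 ± 0.310 (0.30, limma adjusted p = 0.0339). Gltscr2, a large subunit factor, went the other way, from 219, 201 and 249 FPKM in the Epor-eGFP- libraries to 145, 135 and 133 in the Epor-eGFP+ libraries (−0.69, SE 0.10, limma adjusted p = 0.00185).

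Promoter sequence is shown because most members rose. Myc and ETS family factors, which bind short motifs, are known at many growth genes, and their part in the rise was not tested. RefSeq promoters (GRCm38.p6, the assembly of mm10) were matched for 42 of the 49 members, and those of Rrp12, Npm1, Utp6, Nol6, Bop1, Fbl and Utp23 were not matched. In the 250 bases before the start, searched on both strands, the E-box CACGTG was present in 6 of 42 members (14.3%) and in 6.86% of the 27025 genes of the promoter table. CCGGAAG, a core bound by ETS factors, was present in 9 of 42 members (21.4%) against 7.83%, and the NRF1 palindrome in 0 of 42 against 0.877%. In the sequences printed here the matches do not overlap each other. Of the members that rose, 4 of 29 with a promoter held the E-box and 4 of 29 the ETS core. Of those without a call, the counts were 2 of 13 and 5 of 13. These matches are descriptions of letters in the windows and say nothing of binding. The 27025 genes include many outside the 11489 measured here, so the members and that set are not alike. The examples below hold the motifs in capitals, on either strand, and are printed 5′ to 3′ on the strand of the gene. Nop2 (chr6:125131633-125131882, plus strand) holds both motifs, and Imp4 (chr1:34439579-34439828, plus strand) holds the E-box. Gar1 (chr3:129831397-129831646, minus strand) and Nhp2 (chr11:51619523-51619772, plus strand), partners in the same snoRNP, each hold 1 ETS core. Utp3 (chr5:88554212-88554461, plus strand), which was not higher, holds the core at 224 and 138 bases before the start.
Nop2: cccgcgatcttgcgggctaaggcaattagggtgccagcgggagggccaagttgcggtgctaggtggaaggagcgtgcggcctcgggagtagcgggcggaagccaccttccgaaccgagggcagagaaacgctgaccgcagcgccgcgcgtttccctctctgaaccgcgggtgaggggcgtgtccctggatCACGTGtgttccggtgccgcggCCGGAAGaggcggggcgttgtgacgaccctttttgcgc
Imp4: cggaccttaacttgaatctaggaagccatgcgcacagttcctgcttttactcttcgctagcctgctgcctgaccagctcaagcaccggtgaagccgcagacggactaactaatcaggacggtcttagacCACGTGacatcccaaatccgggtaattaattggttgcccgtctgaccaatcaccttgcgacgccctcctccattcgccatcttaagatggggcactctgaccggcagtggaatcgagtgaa
Gar1: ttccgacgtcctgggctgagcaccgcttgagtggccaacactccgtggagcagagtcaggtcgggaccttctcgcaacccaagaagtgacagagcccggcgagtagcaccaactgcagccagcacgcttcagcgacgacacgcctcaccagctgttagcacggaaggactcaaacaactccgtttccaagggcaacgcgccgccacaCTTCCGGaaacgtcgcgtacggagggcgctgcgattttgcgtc
Nhp2: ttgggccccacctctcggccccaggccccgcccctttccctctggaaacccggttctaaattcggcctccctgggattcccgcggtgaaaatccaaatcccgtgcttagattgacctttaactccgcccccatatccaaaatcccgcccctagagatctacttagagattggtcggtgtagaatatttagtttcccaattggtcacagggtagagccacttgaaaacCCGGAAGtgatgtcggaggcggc
Utp3: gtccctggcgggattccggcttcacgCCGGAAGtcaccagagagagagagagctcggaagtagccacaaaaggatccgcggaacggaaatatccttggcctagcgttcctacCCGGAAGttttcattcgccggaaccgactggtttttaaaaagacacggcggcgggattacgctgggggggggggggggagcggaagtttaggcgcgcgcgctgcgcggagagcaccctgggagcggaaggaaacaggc

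RNA polymerase I subunits were split. Polr1b, the second-largest subunit and part of the catalytic centre, was at 5.33, 6.23 and 4.19 FPKM in the Epor-eGFP- libraries against 11.1, 11.5 and 9.39 in the Epor-eGFP+ libraries. The groups did not overlap, and the rise was 0.91 on the log2 scale (SE 0.14, limma adjusted p = 0.00255). Polr1a, the largest subunit, was at 10.4, 9.72 and 9.05 against 12.0, 12.3 and 9.82 FPKM. Its groups overlapped and it did not pass (0.20, SE 0.10, limma adjusted p = 0.147). The FPKM ratio of Polr1b to Polr1a was therefore 0.539 ± 0.092 in Epor-eGFP- and 0.940 ± 0.017 in Epor-eGFP+ (SD, n = 3). Polr1c, a subunit shared with RNA polymerase III, rose from 19.4 ± 1.37 to 25.8 ± 2.47 FPKM (0.40, SE 0.09, limma adjusted p = 0.0129), a call that was lost without Epor-eGFP- library 0, without Epor-eGFP+ library 0 and without both. Polr1d, its partner in both polymerases, was at 93.0 ± 8.42 against 91.1 ± 0.871 FPKM (−0.03), and Polr1e at 3.41 ± 0.274 against 3.62 ± 0.487 (0.06). Neither of these passed the test, and the sign of each turned under some alternatives. Of the 5 subunits that the rule found, 2 rose (40.0%, against 22.7% of all genes tested) and 3 had no call.

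All 3 proteins of the box C/D snoRNP core that the rule found rose. Fbl, fibrillarin, the methyltransferase of the particle, was at 69.7, 81.0 and 79.2 FPKM in the Epor-eGFP- libraries against 119, 117 and 102 in the Epor-eGFP+ libraries (0.55, SE 0.09, limma adjusted p = 0.00364). Nop56, a scaffold protein, was at 27.9, 33.6 and 26.3 against 57.9, 59.6 and 43.0 FPKM (0.84, SE 0.15, limma adjusted p = 0.00422). Nop58, the other scaffold protein, was at 26.2, 32.7 and 20.0 against 48.8, 55.6 and 39.2 FPKM (0.85, SE 0.19, limma adjusted p = 0.011). In none of the 3 did the groups overlap, and 28.4% of all genes tested were likewise apart with Epor-eGFP+ higher. In each of the 3, Epor-eGFP+ library 2 was the lowest of its group, as in 46.1% of all genes tested. Nop56 and Nop58 kept close to each other, at an FPKM ratio of 1.14 ± 0.155 in Epor-eGFP- and 1.12 ± 0.060 in Epor-eGFP+.

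All 4 proteins of the box H/ACA snoRNP rose as well. Dkc1, dyskerin, the pseudouridine synthase, was at 13.9, 20.1 and 10.9 FPKM in the Epor-eGFP- libraries against 30.6, 34.3 and 25.9 in the Epor-eGFP+ libraries, a ratio of means of 2.02 (SE of the log2 fold change 0.21, limma adjusted p = 0.00823). Gar1 was at 9.21, 10.4 and 8.90 against 18.6, 20.9 and 15.6 FPKM (0.88, SE 0.12, limma adjusted p = 0.00157). Their FPKM ratio, Gar1 to Dkc1, was 0.665 ± 0.152 in Epor-eGFP- and 0.606 ± 0.004 in Epor-eGFP+. Nhp2 was at 31.9, 40.8 and 37.4 against 66.1, 65.7 and 51.5 FPKM (0.72, SE 0.13, limma adjusted p = 0.00482). Nop10, the smallest of the core proteins, was at 39.6, 51.3 and 48.0 against 74.9, 73.9 and 74.3 FPKM (0.68, SE 0.10, limma adjusted p = 0.00235). The 4 genes did not overlap between groups, as was so with Epor-eGFP+ higher for 28.4% of all genes tested. Dkc1 spans chrX:75095854-75109777 on the plus strand (GRCm38), with the others on chromosomes 2, 3 and 11.

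**Figure D2:**
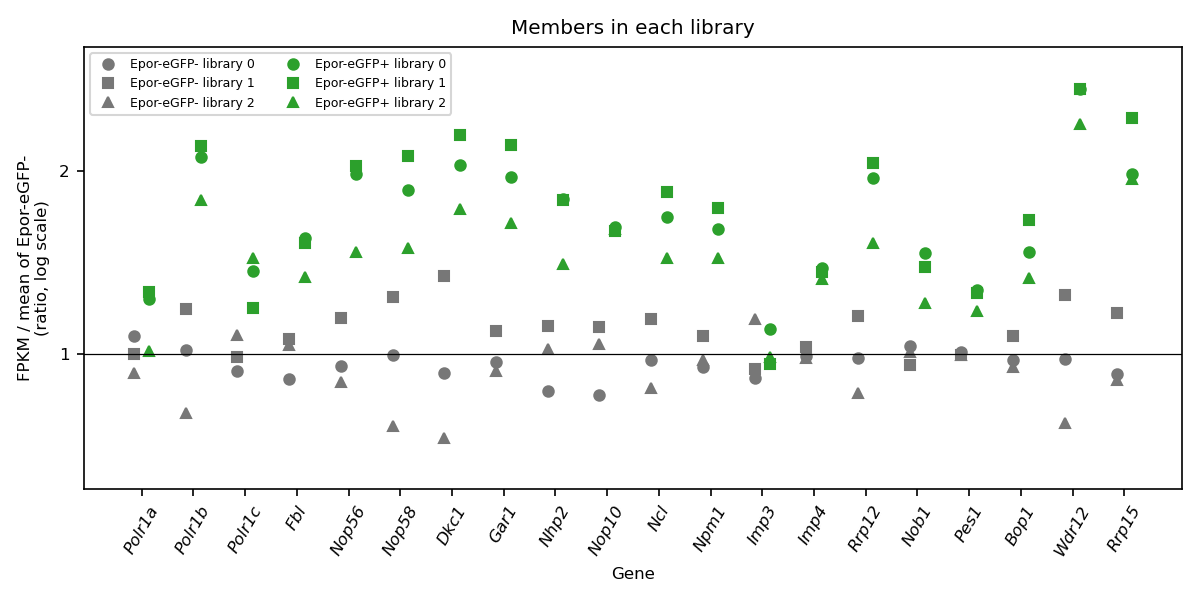
FPKM of 20 members in each library divided by the mean of the 3 Epor-eGFP- libraries (y axis, log scale, no error bars since every library is drawn), with grey for Epor-eGFP- and green for Epor-eGFP+ and the shape giving the library number. All Epor-eGFP+ points lie above all Epor-eGFP- points for every gene drawn except Polr1a and Imp3.

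Ncl, nucleolin, and Npm1, nucleophosmin, are abundant nucleolar chaperones, and both rose. Npm1 had the highest level of all members, at 278, 312 and 285 FPKM in the Epor-eGFP- libraries against 468, 507 and 419 in the Epor-eGFP+ libraries (0.67, SE 0.10, limma adjusted p = 0.00217). Ncl was at 56.1, 65.4 and 50.4 against 96.2, 106 and 82.4 FPKM (0.72, SE 0.13, limma adjusted p = 0.0044). For both genes Epor-eGFP+ library 1 was the highest and Epor-eGFP- library 1 the highest of its group, and the groups were apart. Npm1 has near-identical processed copies in the genome, so its level is uncertain.

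Small subunit factors were mixed: of 22, 13 rose (59.1%, against 22.7% of all genes tested) and 9 had no call (median log2 fold change 0.34). Rrp12, which helps to export the small subunit precursor, was at 5.41, 6.37 and 4.75 FPKM in the Epor-eGFP- libraries against 10.7, 11.4 and 8.39 in the Epor-eGFP+ libraries (0.78, SE 0.14, limma adjusted p = 0.00446). Rrp9, a protein of the U3 snoRNP (0.69), Nop14 (0.64), Utp20 (0.58) and Nol6 (0.49) rose too. Imp4, which binds U3 with Imp3, was at 17.8, 18.4 and 17.7 against 24.8, 24.5 and 23.9 FPKM (0.42, SE 0.06, limma adjusted p = 0.00217). Imp3 in contrast was at 42.3, 43.7 and 52.9 against 50.8, 44.5 and 45.8 FPKM, with groups that overlapped (0.03, SE 0.10, limma adjusted p = 0.846). The direction of Imp3 turned when single libraries were left out. The FPKM ratio of Imp3 to Imp4 was 2.58 ± 0.359 in Epor-eGFP- and 1.93 ± 0.113 in Epor-eGFP+. Nob1, the nuclease that makes the last cut of 18S ribosomal RNA, was at 14.3, 13.3 and 14.0 against 20.4, 19.3 and 16.9 FPKM (0.41, SE 0.09, limma adjusted p = 0.00829). The other members that rose, Nol11, Utp6, Nop9, Utp15, Utp11l and Rrp7a, had log2 fold changes between 0.22 and 0.38. Utp11l was called higher in 14 and Rrp7a in 12 of the 19 other settings.

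Utp23 and Utp3 were the members with the most negative values. Utp23, a processome protein, was at 6.15, 5.78 and 6.79 FPKM in the Epor-eGFP- libraries against 4.93, 4.68 and 5.54 in the Epor-eGFP+ libraries. Utp3, another processome protein, was at 34.6, 35.7 and 42.3 against 30.4, 33.0 and 32.0 FPKM. In both genes every Epor-eGFP+ library lay below every Epor-eGFP- library, but neither passed (log2 fold changes −0.26 and −0.23, limma adjusted p = 0.0579 and 0.077). With the replicate block both passed (limma adjusted p = 0.0245 and 0.0463), and the adjusted p spanned, over 19 other settings, 0.0245 to 0.295 for Utp23 and 0.0463 to 0.302 for Utp3. By an exact two-sided permutation test of FPKM, p was 0.1 for each, the smallest that 3 against 3 libraries allow. Any gene whose groups do not overlap gets this value, so it adds nothing to the separation. Utp14a (0.03), Nol7 (0.00) and Rrp36 (−0.08) also had no call, and the sign of each turned under some alternatives. Utp18 (0.26), Nol10 (0.24) and Utp14b (0.29) had no call either, and Utp18 passed with the replicate block (limma adjusted p = 0.0189, up to 0.337 over the alternatives).

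Of 12 large subunit factors, 11 rose (91.7%, against 22.7% of all genes tested) and 1, Rrp8, had no call (median log2 fold change 0.44). The PeBoW proteins rose by different amounts. Wdr12 was at 5.56, 7.10 and 4.36 FPKM in the Epor-eGFP- libraries against 15.5, 15.5 and 13.5 in the Epor-eGFP+ libraries (1.26, SE 0.15, limma adjusted p = 0.00118). Bop1 was at 22.6, 24.8 and 22.0 against 34.0, 38.4 and 30.8 FPKM (0.55, SE 0.10, limma adjusted p = 0.00424). Pes1 was at 30.2, 29.8 and 29.8 against 38.2, 37.7 and 35.3 FPKM (0.30, SE 0.06, limma adjusted p = 0.00876). Each had groups that did not overlap, as was so with Epor-eGFP+ higher for 28.4% of all genes tested. The FPKM ratio of Wdr12 to Pes1 was 0.189 ± 0.046 in Epor-eGFP- and 0.400 ± 0.014 in Epor-eGFP+. Wdr12, at 2.61 times its Epor-eGFP- mean, had the largest ratio of the members, and spans chr1:60069785-60098645 on the minus strand (GRCm38).

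Rrp15, a factor of the large subunit precursor, was at 9.13, 11.5 and 8.90 FPKM in the Epor-eGFP- libraries against 19.5, 24.0 and 19.1 in the Epor-eGFP+ libraries (1.01, SE 0.13, limma adjusted p = 0.0013). Nop16 was at 10.2, 12.5 and 11.3 against 23.2, 21.5 and 19.1 FPKM (0.85, SE 0.10, limma adjusted p = 0.00124). Nop2, a methyltransferase of 28S ribosomal RNA, was at 14.4, 15.8 and 13.5 against 26.6, 25.1 and 22.5 FPKM (0.72, SE 0.09, limma adjusted p = 0.00137). In these 3 genes the lowest Epor-eGFP+ library lay well above the highest Epor-eGFP- library. Rrp1, with 68.1, 69.3 and 68.6 against 85.0, 84.6 and 85.3 FPKM, had a small change and a very small spread (0.30, limma adjusted p = 0.00579). Nol8 (0.46), Rrp1b (0.42), Nol9 (0.31) and Nol12 (0.21, limma adjusted p = 0.0472) rose as well. Of the 19 other settings, Rrp1b and Nol9 were each called higher in 13 and Nol12 in 10. Rrp8, a methyltransferase of 28S ribosomal RNA, was at 9.46, 9.61 and 9.51 against 11.5, 11.5 and 9.52 FPKM, where only Epor-eGFP+ library 2 lay within the Epor-eGFP- range. Nol4l, which has a nucleolar name but no role in ribosome assembly given here, was at 0.858 ± 0.243 against 1.45 ± 0.263 FPKM and had no call (limma adjusted p = 0.0577, and 0.0207 with the replicate block).

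The groups did not overlap in 41 of 49 members, 38 with Epor-eGFP+ higher and 3, Utp3, Utp23 and Rrp36, with it lower. Of all genes tested, 60.4% did not overlap, 28.4% with Epor-eGFP+ higher. The members also shared an order of libraries within each group. Among Epor-eGFP+ libraries, library 2 was the lowest in 38 of 49 members and library 1 the highest in 32, against 46.1% and 42.3% of all genes tested. Among Epor-eGFP- libraries, library 1 was the highest in 34 members, against 33.6% of all genes tested.

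Exons of 13 members overlap exons of another protein-coding gene, 12 on the opposite strand and 1, Utp14b with Acsl3, on the same strand. No use of strand in the counting is given in the sources used here, so reads in these stretches cannot be assigned with certainty. The overlap took between 0.122% and 29.9% of the member's exon bases, the most in Nop9, whose neighbour Cideb was at 1.11 ± 0.554 FPKM in Epor-eGFP- and had no call. Without these 13 members, 25 of 36 rose and none fell. 4 of the genes that rose are also host genes: Dkc1, Ncl, Nop56 and Nop58 hold 13 annotated snoRNA genes between them, 5 of them in Nop56.

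Other genes of the pathway, in 5 lists, rose more often than they fell. Of 131 tested, 69 rose (52.7%, against 22.7% of all genes tested) and 8 fell (6.11%, against 26.3%). The other 54 had no call, and the median log2 fold change was 0.31. Of 15 RNA polymerase I factors and shared subunits, 5 rose (33.3%) and 1 fell (6.67%). Rrn3, the initiation factor of RNA polymerase I, rose from 9.73 ± 0.364 to 12.3 ± 0.571 FPKM (0.31, SE 0.07, limma adjusted p = 0.0124), while Ubtf, the factor that binds ribosomal DNA, was at 39.1 ± 2.59 against 38.3 ± 2.16 (limma adjusted p = 0.792) and changed sign with the scaling. The subunits Polr2h (0.61), Cd3eap (0.58) and Polr2l (0.52) rose. Twistnb (0.02) and Znrd1 (−0.04) were among the 9 genes of this list without a call. Of 14 genes of snoRNP assembly, 9 rose (64.3%) and none fell (limma), and at an unadjusted p under 0.05 the counts were 9 and 0. Nolc1, a chaperone of snoRNPs, rose from 19.0 ± 3.36 to 36.5 ± 4.81 FPKM (0.92), with Znhit3 (0.78) and the ATPase gene Ruvbl1 (0.74).

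Of 39 other small subunit factors, 22 rose (56.4%) and 3 fell (7.69%). Of 48 other large subunit factors, 26 rose (54.2%) and 3 fell (6.25%). Of all genes tested, 22.7% were higher and 26.3% lower. Gnl3, nucleostemin, was at 10.3, 12.5 and 8.04 FPKM in the Epor-eGFP- libraries against 27.8, 26.6 and 22.8 in the Epor-eGFP+ libraries (1.26, SE 0.15, limma adjusted p = 0.00122), beside 1.26 for Wdr12. Nle1 (1.07) and Ppan (0.99) of the large subunit and Tsr1 (from 6.32 ± 1.12 to 13.5 ± 0.692 FPKM), Wdr75 (0.92) and the RNA acetyltransferase gene Nat10 (0.92) of the small subunit rose too. Of 15 genes of the nuclear RNA exosome and exonucleases, 7 rose (46.7%) and 1 fell (6.67%), with Exosc2 (0.63), Exosc5 (0.60) and Dis3 (0.57) the largest.

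Ribosomal proteins are the cargo of this pathway, and most of their genes had no call. Of 85 tested genes with a ribosomal protein symbol (a few related genes and pseudogenes included), 17 rose and none fell (limma). Higher calls were 20.0% against 22.7% of all genes tested, lower calls 0.0% against 26.3%, and calls in either direction 20.0% against 49.0%. The median log2 fold change was 0.09. At an unadjusted p under 0.05, 20 were higher and 0 lower. Their summed level was 63468 to 74026 FPKM in Epor-eGFP- and 70082 to 75540 in Epor-eGFP+, and these ranges overlap, whereas the summed level of the 49 members was 1231 to 1350 against 1670 to 1917. Rps2, a small subunit protein, rose from 1012 ± 61.3 to 1622 ± 103 FPKM (0.68), and Rpl26 (1.17) and Rpl30 (0.77), which have many pseudogenes and are uncertain singly, rose more. Leaving out single libraries brought the count of ribosomal protein genes that rose to between 9 and 21, and leaving out both numbered 0 brought it to 0. The difference between the lists themselves was not tested.

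**Figure D3:**
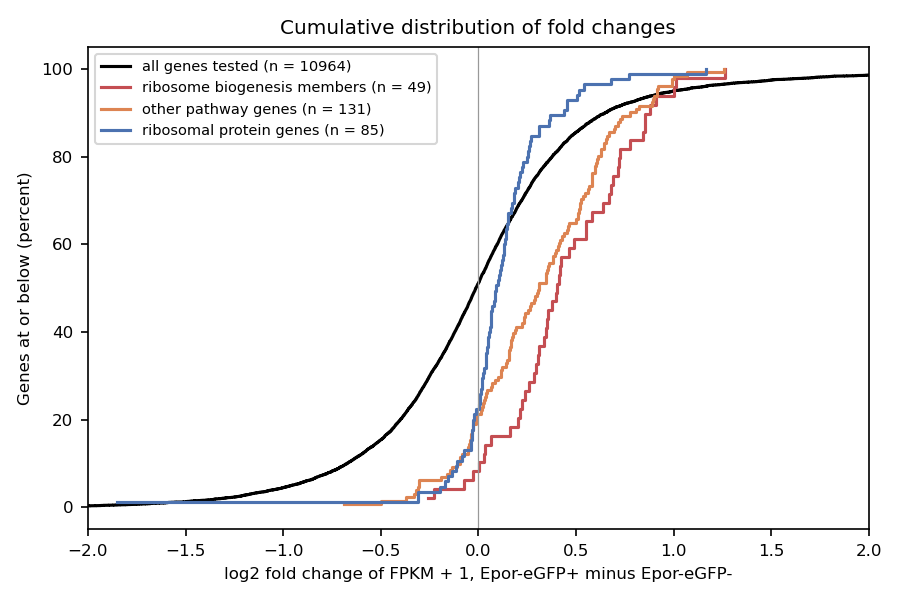
Share of genes (y axis, percent) at or below each log2 fold change (x axis, Epor-eGFP+ minus Epor-eGFP-, drawn from −2 to 2) for all 10964 genes tested, the 49 members, 131 other pathway genes and 85 ribosomal protein genes. The curve of the members, with a median of 0.40, lies to the right of the others over most of its range, and that of the ribosomal protein genes rises steeply near 0.

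Myc was the 1 gene of 10 tested in its network that rose, and 5 fell. It was at 22.9, 25.6 and 14.1 FPKM in the Epor-eGFP- libraries against 48.5, 41.3 and 35.1 in the Epor-eGFP+ libraries (0.99, SE 0.22, limma adjusted p = 0.0105), and the groups did not overlap. Mxd1, which competes with Myc for the partner Max and is known to rise as granulocytes mature, was at 55.9, 43.6 and 39.0 against 16.0, 12.7 and 12.7 FPKM (−1.66, SE 0.15, limma adjusted p = 0.000546). Mxd3 (−0.44) fell as well, and Max, Mxi1 and Mnt were the other genes that fell.

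Markers of cell types and of division differed between the same libraries. F4/80+ Epor-eGFP- cells carried little of the resident macrophage list, with 12 genes summing to 240 to 284 FPKM against 1906 to 6819 in Epor-eGFP+. Adgre1, the gene of F4/80, weighed on the Epor-eGFP- sums, at 136, 132 and 139 FPKM against 143, 117 and 241 in Epor-eGFP+. It had no call (0.23, limma adjusted p = 0.463). Epor-eGFP- cells carried much of the neutrophil list, with 11 genes at 24684 to 38974 FPKM against 13175 to 17131. The 6 promyelocyte genes summed to 1671 to 3039 FPKM in Epor-eGFP- and 7999 to 9945 in Epor-eGFP+, and 5 of 6 rose. The 23 erythroid genes summed to 261 to 616 against 646 to 1382 FPKM. Of these 17 rose, Nfe2 fell, and Gata1, Hba-a1, Hba-a2, Hbb-bs and Alas2 had no call. Epor, whose reporter was used for the sort, is among the 17. Nfe2 and Hba-a1 weighed on the sums. Nfe2 was at 196, 181 and 195 FPKM in the Epor-eGFP- libraries against 98.2, 87.9 and 82.0 in the Epor-eGFP+ libraries. Hba-a1 was at 21.1, 12.9 and 258 against 259, 73.6 and 562 FPKM. The 10 monocyte genes summed to 3428 to 4795 against 1584 to 1824 FPKM, and 9 of 10 fell. No gene of these lists is listed at 0 in any library. Of 24 proliferation genes 5 rose (20.8%, against 22.7% of all genes tested) and none fell. With the replicate block 18 rose and 1 fell, in a fit that called 28.0% of all genes higher and 30.4% lower. Mki67 was at 88.4 ± 14.3 against 83.8 ± 18.9 FPKM (limma adjusted p = 0.706), and its sign turned when each library was rescaled to the same total, while Ccnb1 (0.80), Aurka (0.58) and Plk1 (0.57) rose. Within Epor-eGFP+, library 1 had the highest and library 2 the lowest sum of promyelocyte, proliferation and member genes, whereas for the resident macrophage list this order was the reverse. The part of these cell types in the differences of the members was not tested, and in sorted bulk cells fewer cells of a type cannot be told apart from less RNA per cell.

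**Figure D4:**
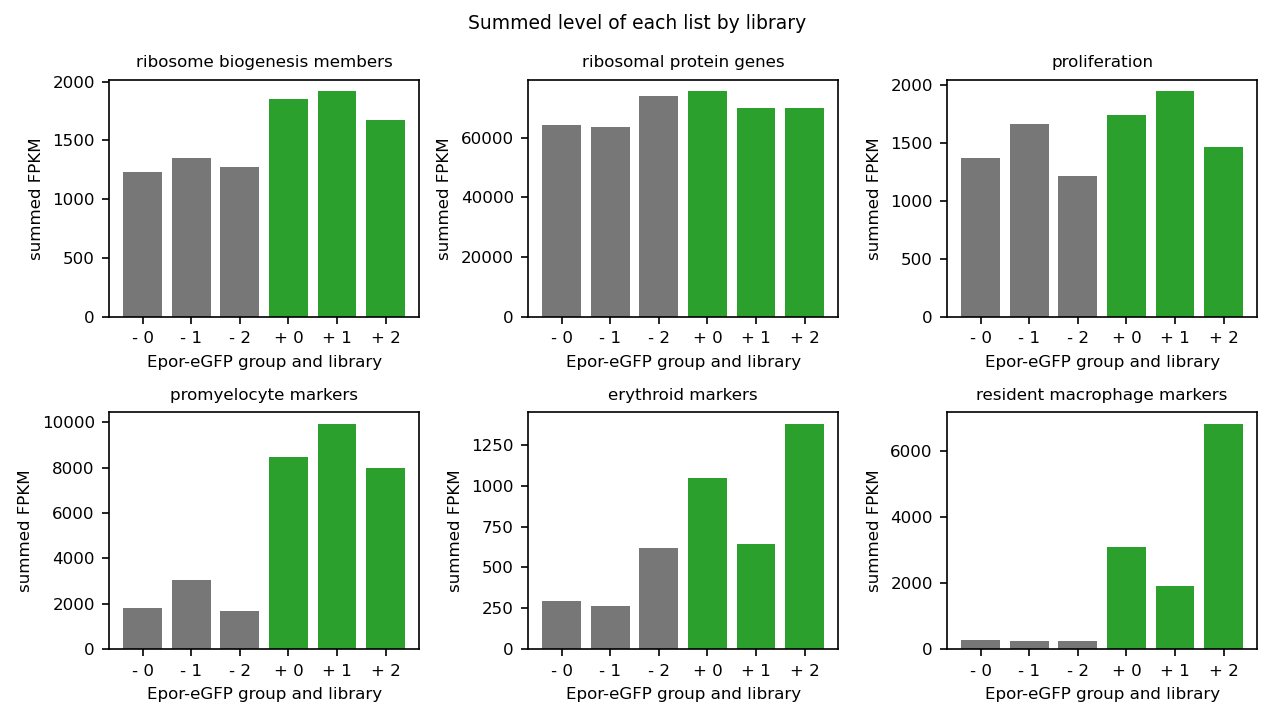
Summed FPKM (y axis, bars from 0, no error bars since each bar is 1 library) of 6 gene lists in Epor-eGFP- libraries 0 to 2 (grey) and Epor-eGFP+ libraries 0 to 2 (green). The member sum is 1670 to 1917 in Epor-eGFP+ and 1231 to 1350 in Epor-eGFP-, and the ribosomal protein sums of the groups overlap.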

How the data were processed

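RNA was measured in 6 libraries, 3 per group, made with a TruSeq RNA kit per the labels' protocols. The authors deposited FPKM values in a single table, and the submitters' processing notes name, without role or order, Cufflinks 2.2.1, TopHat2 2.1.0, Trimmomatic 0.35, bcl2fastq 2.19.1.403 and the build mm10. Annotation, filters and any scaling of libraries were not given in the sources used here. FPKM hold no counts, so depth is unknown. Total FPKM per library was 467176 to 519650. Column names give a group and a number from 0 to 2, which does not match the labels' 1 to 3, so columns were assigned to groups only. Same-numbered libraries deviated together (correlations over genes of 0.252, 0.377 and 0.348 for numbers 0, 1 and 2, above the 0.1 set for this check), so the numbers were treated as pairs in the fit with a replicate block.

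limma 3.58.1 (R 4.3.3) was fitted to log2(FPKM + 1) for the 10964 genes whose mean reached 1 FPKM, with group as the only term, a mean-variance trend and two-sided tests, Benjamini-Hochberg adjusted over all genes tested at 0.05. The log2(FPKM + 1) scale understates changes of low genes. Cufflinks estimates how reads are shared between similar genes. The fit was tested on simulated data. Members with values in every library are the 8 called higher with the largest change, all called lower (none) and 18 fixed genes. Of other lists, up to 3 called genes with the largest change, and Myc, Mki67, Ubtf and Rrn3, are named. Genes outside this rule, such as Utp3, Utp23, Gltscr2, Rrp8, Rrp1 and Nol4l, were named after their values were seen. Members and lists were chosen with earlier results of these data known. Positions are from GENCODE M21 (GRCm38), where all 49 members matched, and promoters from RefSeq (GRCm38.p6).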

Additional observations from a re-analysis of the deposited data

How the results depend on the processing

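Over 19 other settings (pseudocounts of 0.1 and 0.5, no filter or a mean of at least 5 FPKM, 4 scalings, no variance trend, the replicate block and leaving out libraries), the median log2 fold change of the members stayed positive. It was 0.49 with each library rescaled to the mean total, where the median of all genes moved from −0.01 to 0.08, and 0.34 to 0.44 with libraries left out. Between 7 and 38 members were higher and 0 to 1 lower with libraries left out, the lowest count without both libraries numbered 0. There 12.9% of all genes were called in either direction, against 41.5% without both numbered 1 and 43.1% without both numbered 2, and the cause was not tested. The count of members lower was 1 under quantile normalization (Utp23), 2 with the replicate block (Utp23 and Utp3), and 1 with the rule applied to RefSeq symbols, which adds Gltscr2. The last setting and the one without overlapping genes were chosen after seeing the data. Among the members the block otherwise changed only the calls given beside the results. Other lists moved too. With the block, 75 other pathway genes were higher and 7 lower, and 16 ribosomal protein genes were higher and 0 lower. Of the marker lists, 21 erythroid genes were then higher, and 11 neutrophil and 10 monocyte genes lower. The promyelocyte gene Cebpe was then lower (limma adjusted p = 0.00799), beside 5 higher.

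Of the other pathway genes, 9 to 79 were higher and 2 to 8 lower with libraries left out, and 2 were lower when rescaled to the total and 5 to the upper quartile. Of the ribosomal protein genes, 0 to 21 were higher and 0 to 1 lower with libraries left out, and 1 was lower under quantile normalization. The sign of 6 members without a call turned under some alternatives (Imp3, Nol7, Polr1d, Polr1e, Rrp36 and Utp14a), and so did those of Mki67 and Ubtf. With libraries left out, Imp3 ran from −0.089 to 0.143, Mki67 from −0.26 to 0.049 and Ubtf from −0.065 to 0.026. Rescaled to the total, Mki67 was at 0.012 and Ubtf at 0.072, and Ubtf was at 0.034 rescaled to the upper quartile and 0.028 under quantile normalization. The cause was not tested. Depth is unknown, so the counting error of members near 1 FPKM, such as Nol4l and Utp14b, cannot be given.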
